A study of Mus musculus with 18 samples.

Results

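Immediate early genes are switched on within minutes of a stimulus from factors already present in the cell, with no need for new protein synthesis. Their products are mostly transcription factors: FOS and JUN proteins pair to form AP-1, EGR proteins bind GC-rich sites, NR4A1 is an orphan nuclear receptor, and MYC drives growth and biosynthesis. In T cells they rise after T cell receptor (TCR) engagement, and EGR2, EGR3 and NR4A1 are also known for restraining activation. The genes described here are 10 of the 23951 gene symbols in the table, chosen by name: Fos, Fosb, Jun, Junb and Jund of the AP-1 family, Egr1, Egr2 and Egr3, Nr4a1 and Myc. All 10 passed the filter on low values, which kept 11099 genes.

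The 18 libraries hold RNA of naive CD4+CD25-CD62Lhi T cells, sorted by flow cytometry from C57BL/6 mice of 6 genotypes with 3 libraries each. WT mice were the control. In cluster Tg mice the T cells over-expressed the miR-23 cluster (miR-23, miR-27 and miR-24) as a whole. In the genotypes named miR-23 Tg, miR-24 Tg or miR-27 Tg they over-expressed that microRNA alone. In DKO mice both clusters, a and b, had been deleted in T cells. The sample labels also write the control as WT Tg and the deletion as DKO Tg, without naming the transgene meant. For the promoter of each transgene, the Cre line, ages, sexes and any pooling of mice, the sources used here give nothing. No stimulus is named, so the values are those of freshly sorted cells as far as the labels say. Because separate animals are not stated for the replicates, p-values measure only the spread between these libraries, which may be technical. In bulk samples, fewer cells of a type and less RNA per cell cannot be told apart.

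The labels were checked on the hairpins and on T cell markers. Mir23a, Mir27a and Mir24-2 reached 13888 RPKM or more in every library labelled for them and at most 588 RPKM elsewhere. In DKO, Mir27a (0 to 39.5 RPKM) lay below WT (95.6 to 194 RPKM) and Mir24-2 was listed at 0, while Mir23a (0 to 76.1) overlapped WT (0 to 280). Cd4 ranged from 334 to 617 RPKM and Cd3e from 267 to 565 RPKM, against 0.408 to 7.97 RPKM for Il2ra, which encodes CD25, and 0.211 to 11.2 RPKM for Cd8a. Relative depth ranged from 0.634 to 1.47 of that of WT replicate 1, and absolute depth is unknown. MiR-27 Tg replicate 3 and DKO replicate 3 lay far from the rest on the first principal component (122.5 and 51.3, others -20.8 to -0.317), so results are given without them where they bear on a call. In the header, a pair of miR-23 Tg columns share one name; they are called columns 3 and 4 here and carry no replicate number.

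A microRNA binds mRNAs through its seed, bases 2 to 8, which is shown in capitals below because the matches in the immediate early genes are read from it. The mature sequences are from RefSeq (GRCm38.p6), 5′ to 3′, on the plus strand of chromosome 8 at chr8:84208563-84208583, chr8:84208727-84208747 and chr8:84208875-84208896.
mmu-miR-23a-3p: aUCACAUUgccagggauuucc
mmu-miR-27a-3p: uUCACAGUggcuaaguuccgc
mmu-miR-24-3p: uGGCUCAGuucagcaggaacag

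Seed matches were searched in the longest 3′ UTR of each gene (GENCODE vM21, GRCm38): 7 bases matching the seed (7mer-m8), bases 2 to 7 followed by an A (7mer-A1), or both (8mer). Of the 10 genes, 3 held a match to miR-23, 1 to miR-27 and 1 to miR-24, against 24.1%, 28.5% and 26.1% of the 9838 tested genes with a UTR. The matches lay in Fosb, Egr3 and Egr1, and Egr1 held a single 7mer-A1 to miR-23. Fos, Jun, Junb, Jund, Egr2, Nr4a1 and Myc held no such match in the UTR searched. The sites of Fosb and Egr3 are printed because their matches are to microRNAs over-expressed in these mice. Capitals mark the match.
Fosb, miR-23 8mer, UTR bases 831 to 838 of 2302: ctgattccaaAATGTGAAcccctat
Fosb, miR-27 8mer, UTR bases 1076 to 1083 of 2302: agcgctttatACTGTGAAtgagtgg
Egr3, miR-24 8mer, UTR bases 302 to 309 of 2645: ccaggggccgCTGAGCCAcgccaag
Egr3, miR-23 7mer-m8, UTR bases 2007 to 2013 of 2645: tactttttatAATGTGAtgattatt
Egr3, miR-23 7mer-A1, UTR bases 2280 to 2286 of 2645: actctaacttATGTGAActgagaga

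Levels in WT cells, in RPKM and therefore per length of transcript, spanned a wide range. Junb, a JUN protein of AP-1, stood highest at 1475 ± 470 RPKM (SD, n = 3). Fos followed at 640 ± 150, Jun at 400 ± 43.2 and Jund at 259 ± 81.2 RPKM, and these 4 did not overlap each other. Nr4a1 (174 ± 69.8) and Fosb (161 ± 86.5) overlapped each other and overlapped Jund, while Egr1 (83.1 ± 23.1 RPKM) overlapped Fosb and Nr4a1. Myc stood at 50.3 ± 4.0 RPKM. Egr3 (9.42 ± 0.235) and Egr2 (7.47 ± 0.495 RPKM) were the lowest, and they did not overlap each other.

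**Figure D1:**
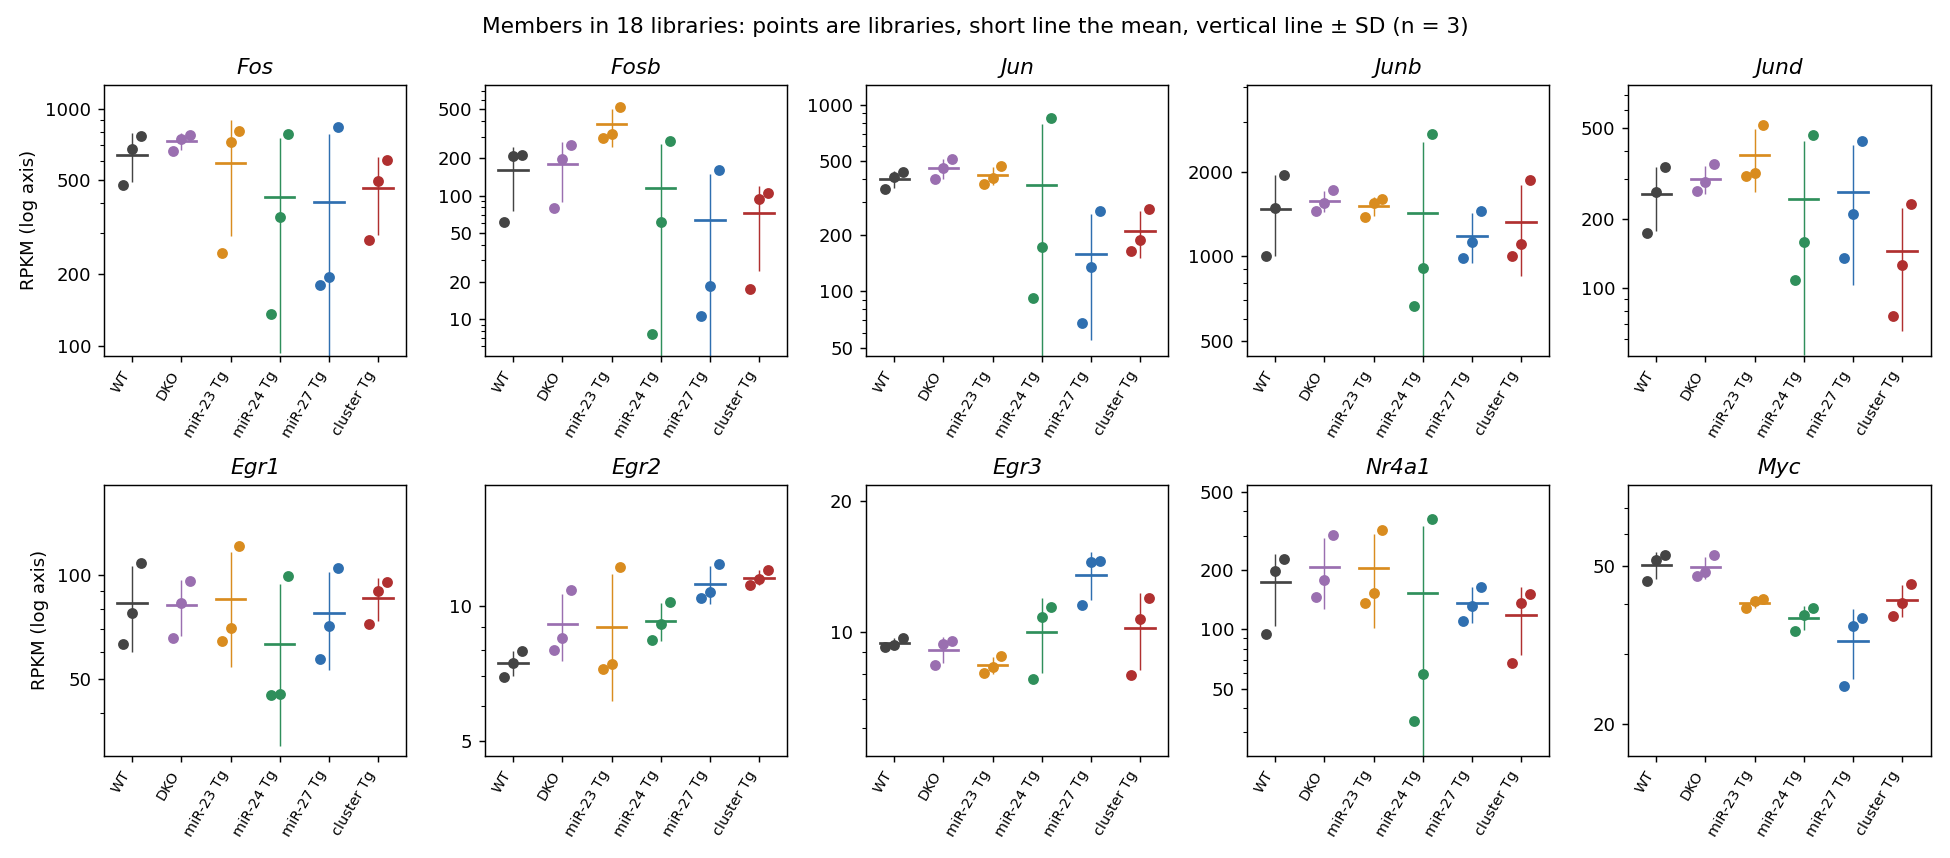
RPKM of the 10 genes (log axes, each gene with its own range) in the 6 genotypes; points are libraries, short horizontal lines means and vertical lines ± SD (n = 3), cut at the panel edge where the mean minus SD is too low for the axis. Myc lies at 25.0 to 45.1 RPKM in the 12 over-expressing libraries and at 45.7 to 53.3 in WT and DKO, while Fosb spans 7.52 to 278.6 within miR-24 Tg alone.

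Myc showed the clearest relation to genotype. It encodes the MYC factor, which dimerises with MAX and drives ribosome and metabolic genes. WT libraries held 45.7, 53.3 and 51.7 RPKM and DKO libraries 48.3, 47.2 and 53.1. MiR-27 Tg libraries held 35.3, 37.1 and 25.0 RPKM, miR-24 Tg libraries 34.3, 39.3 and 37.6, miR-23 Tg libraries 39.1, 41.2 and 40.7, and cluster Tg libraries 45.1, 40.3 and 37.5. Each of the 12 over-expressing libraries was lower than each of the 6 WT and DKO libraries. This pattern was noticed after the values were seen, and 0.180% of the 11099 genes shared it. The direction was not fixed in advance, and in another 0.432% of genes the 12 libraries were all higher. For Myc the gap is narrow: after median-ratio or quantile scaling the groups touched or overlapped, at 45.5 against 45.4 and 46.5 against 46.5 RPKM.

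In the F test over the 6 genotypes, Myc was the single member called by limma (adjusted p = 0.0160), where 19.0% of all genes were called. With a replicate block Myc was not called (0.0579) and Egr2 was (0.0456). Against WT, Myc fell in miR-27 Tg, from 50.3 ± 4.0 to 32.4 ± 6.51 RPKM (SD, n = 3), a log2 difference of -0.63 (SE 0.13, adjusted p = 0.00798). In a fit of these 6 libraries alone the call was lost (adjusted p = 0.272). The 3 other over-expressing genotypes lay in the same direction but did not pass: -0.43 in miR-24 Tg (adjusted p = 0.0908), -0.31 in miR-23 Tg (0.592) and -0.29 in cluster Tg (0.224). These comparisons share the WT libraries and are not independent of each other. In DKO the difference was -0.02 (95% interval -0.30 to 0.26).

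The lowest Myc value, 25.0 RPKM, came from miR-27 Tg replicate 3, one of the libraries that lay apart. Mir23a, Mir27a and Mir24-2 held 2.82% of its RPKM, against 27.2% and 29.1% in miR-27 Tg replicates 1 and 2. Its relative depth of 0.634 was the lowest of the 18 libraries. Its neutrophil and erythroid markers summed to 675 and 524 RPKM, the highest of the 18. Without that library and DKO replicate 3, the difference in miR-27 Tg was -0.46 (adjusted p = 0.00333). In the same fit Myc was also called lower in miR-24 Tg (-0.43, adjusted p = 0.00269), cluster Tg (-0.29, 0.0134) and miR-23 Tg (-0.31, 0.0452). These 3 calls were absent with all 18 libraries. Among the over-expressing genotypes, Myc was not called in any of the 6 pairs; the nearest was miR-27 Tg against miR-23 Tg, at -0.33 (95% interval -0.60 to -0.05, adjusted p = 0.0980).

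Of 11 tested MYC partners and antagonists (MAX, MXD, MNT and MLX families), 0 were called by limma in any of the 5 comparisons with WT (at most 2 at an unadjusted p under 0.05), where 8.48% of all genes were called in cluster Tg, 8.95% in miR-27 Tg, 3.59% in miR-24 Tg, 0.0450% in miR-23 Tg and 0% in DKO. In miR-27 Tg their median was -0.03 against 0.03 over all genes. Of 33 established MYC target genes, among them genes of ribosome assembly, polyamine and nucleotide synthesis, 1 fell in cluster Tg. Limma called 0 in miR-23 Tg, miR-24 Tg, miR-27 Tg or DKO, with 3, 2, 7 and 0 at an unadjusted p under 0.05. The called gene was Hspd1, which encodes a mitochondrial chaperone, at 22.98 ± 2.88 against 39.8 ± 3.77 RPKM (log2 -0.77, adjusted p = 0.0122). Hspd1 is also on a list of 11 tested heat shock genes. The median of that list in cluster Tg was -0.39, with 3 of 11 above 0. The median over the MYC targets was -0.12 in cluster Tg, -0.14 in miR-24 Tg, -0.09 in miR-23 Tg and -0.09 in miR-27 Tg, with 8, 7, 10 and 13 of 33 above 0. In DKO it was 0.06, with 24 of 33 above 0.

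The EGR genes encode zinc finger factors; EGR2 and EGR3 limit T cell activation by inducing inhibitors of TCR signalling, while EGR1 is a broad early response factor. Egr2 libraries of WT held 7.48, 7.96 and 6.97 RPKM and those of cluster Tg 11.2, 11.5 and 12.1, with no overlap. Egr2 rose in cluster Tg, to 11.6 ± 0.452 from 7.47 ± 0.495 RPKM (log2 0.57, SE 0.16, adjusted p = 0.0437). Leaving out any of these 6 libraries ended the call, with an adjusted p of 0.0847 to 0.143. Without WT replicate 1, 2 or 3 it was 0.115, 0.0847 or 0.143. It was also lost without a filter (0.0584) and after quantile normalisation (0.0557). Leaving out miR-24 Tg replicate 1, 2 or 3, which are outside this comparison, ended it too (0.0516, 0.0518 and 0.0601). So did leaving out miR-27 Tg replicate 2 (0.0520) or DKO replicate 1 (0.0579).

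In miR-27 Tg, Egr2 stood at 12.5, 10.8 and 10.4 RPKM, above all WT libraries, with a log2 difference of 0.53 that missed the threshold (SE 0.16, adjusted p = 0.0609). It passed without the libraries that lay apart (0.57, adjusted p = 0.0396), with a replicate block (0.0313), after quantile normalisation (0.0365), with array weights (0.00476) and without miR-23 Tg replicate 1 (0.0138). MiR-24 Tg (10.2, 8.43 and 9.12 RPKM) and DKO (8.48, 10.9 and 7.98 RPKM) also lay above WT in every library, by 0.27 (adjusted p = 0.530) and 0.25 (1.00) on the log2 scale. MiR-23 Tg overlapped WT, with 12.3 RPKM in replicate 1 and 7.25 and 7.44 in the other columns. The direct comparison of cluster Tg with miR-27 Tg gave 0.05 (95% interval -0.30 to 0.40), and that of cluster Tg with DKO gave 0.33 (-0.02 to 0.67, adjusted p = 0.249).

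Egr3 was highest in miR-27 Tg, at 14.5, 14.5 and 11.5 RPKM. WT held 9.68, 9.23 and 9.34 RPKM and miR-23 Tg 8.77, 8.03 and 8.31, so all 3 miR-27 Tg libraries lay above both. Egr3 was called higher in miR-27 Tg than in miR-23 Tg (13.5 ± 1.71 against 8.37 ± 0.371 RPKM, log2 0.62, SE 0.15, adjusted p = 0.0126), the single member called in that pair, where 16.6% of all genes were called. With a replicate block, which leaves a single miR-23 Tg library, the difference was 0.56 and the call was lost (adjusted p = 0.223). With the 2 miR-23 Tg columns of one name averaged, the difference from miR-23 Tg was 0.61 and the call held (limma, adjusted p = 0.0428). Against WT the difference in miR-27 Tg was 0.47 (SE 0.15, adjusted p = 0.0666), and without the libraries that lay apart it was 0.57 (adjusted p = 0.0205). Without cluster Tg replicate 1 or miR-24 Tg replicate 2 it also passed (0.0426 and 0.0395). Egr3 in miR-27 Tg against miR-24 Tg was called without the libraries that lay apart (0.51, adjusted p = 0.0261) and not with all 18.

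The 3 UTR matches of Egr3 are to miR-23 and miR-24. In miR-23 Tg all Egr3 values lay below WT, with a log2 difference of -0.15 (95% interval -0.47 to 0.17, adjusted p = 0.974). In miR-24 Tg the libraries held 10.8, 7.78 and 11.4 RPKM and overlapped WT (0.06, interval -0.26 to 0.38). Cluster Tg, with 7.95, 10.7 and 11.97 RPKM, overlapped WT as well (0.09, interval -0.23 to 0.41).

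Egr1 overlapped WT in every genotype. WT libraries held 108.4, 77.7 and 63.1 RPKM, and the other genotypes ranged from 45.2 RPKM in miR-24 Tg replicate 1 to 121 RPKM in miR-23 Tg replicate 1. Its differences from WT ran from -0.46 in miR-24 Tg to 0.07 in cluster Tg, none with an adjusted p under 0.673.

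Of 15 EGR target genes of T cells, 6 rose and 1 fell in cluster Tg, where 8.48% of all genes were called. Lag3, a co-inhibitory receptor, stood at 13.1 ± 1.49 against 2.21 ± 0.980 RPKM in WT, and Ikzf2, which encodes Helios, at 11.2 ± 4.58 against 1.83 ± 0.182. Ndrg1, a T cell anergy factor, stood at 31.5 ± 2.04 against 9.74 ± 1.503 RPKM, and Zbtb32, a repressor of cytokine genes, at 3.69 ± 0.795 against 0.722 ± 0.123. In miR-24 Tg, 3 of 15 rose (Lag3, Nrgn and Zbtb32), and in miR-27 Tg 2 rose (Lag3 and Nrgn) and 3 fell (Fasl, Crtam and Cblb). Of all genes, 3.59% were called in miR-24 Tg and 8.95% in miR-27 Tg. In miR-23 Tg and DKO limma called 0 of the 15, with 4 and 0 at an unadjusted p under 0.05. The shares of all genes called there were 0.0450% and 0%. The median over the list was 0.14 in cluster Tg (0.00 over all genes), 0.52 in miR-24 Tg (0.01) and 0.11 in miR-27 Tg (0.03).

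**Figure D2:**
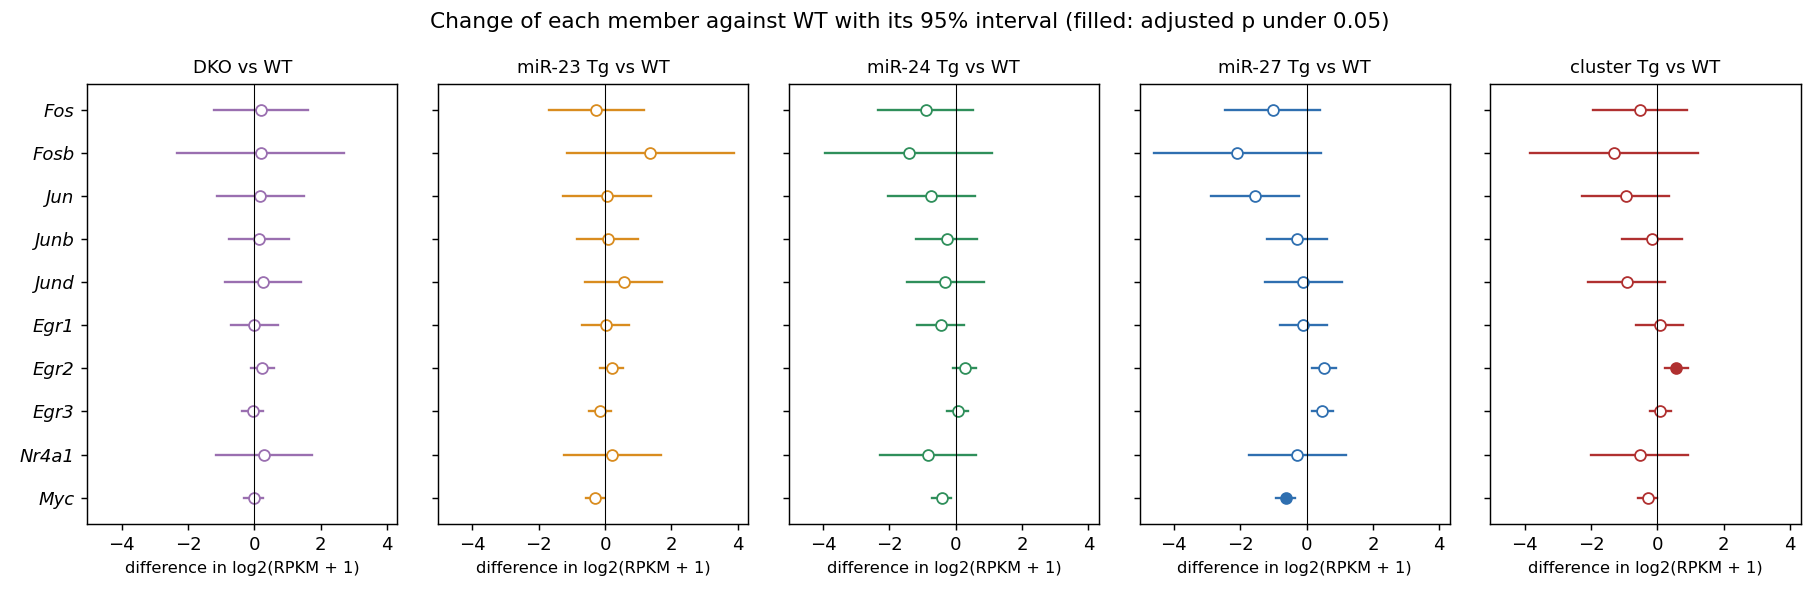
Difference from WT in log2(RPKM + 1) for each gene, with its 95% interval, in DKO and the 4 over-expressing genotypes; filled points have an adjusted p under 0.05. Myc in miR-27 Tg (-0.63) and Egr2 in cluster Tg (0.57) are filled, and the intervals of Fosb are the widest, from -4.61 to 0.43 in miR-27 Tg.

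The AP-1 genes varied far more between libraries of one genotype. Fos, the short-lived partner of JUN, held 676, 769 and 475 RPKM in WT and 660, 778 and 746 in DKO. MiR-24 Tg held 136, 782 and 349 RPKM, miR-27 Tg 840, 194 and 180, cluster Tg 494, 609 and 279, and miR-23 Tg 246, 726 and 803. Within miR-24 Tg and within miR-27 Tg a single library was as high as WT and the others lay below all WT libraries. The differences from WT were -1.02 in miR-27 Tg (95% interval -2.44 to 0.40) and -0.91 in miR-24 Tg (-2.33 to 0.51), neither past the threshold (adjusted p = 0.336 and 0.675).

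Fosb, a FOS relative and the member with 8mers to both miR-23 and miR-27, had the widest spread. WT held 210.5, 211.7 and 61.4 RPKM. MiR-23 Tg held 525, 290.5 and 315 RPKM, all above WT and above every other library of the series. Both the direction and the size of that difference (log2 1.37, 95% interval -1.15 to 3.89, adjusted p = 0.943) are uncertain at this spread. MiR-27 Tg held 161, 18.4 and 10.6 RPKM, 2 of 3 below all WT libraries, with a difference of -2.09 (interval -4.61 to 0.43, adjusted p = 0.276). MiR-24 Tg, whose microRNA has no match in the Fosb UTR, held 7.52, 278.6 and 60.9 RPKM, and cluster Tg 93.3, 105.8 and 17.4. Fosb in miR-27 Tg against miR-23 Tg gave -3.46 (interval -5.98 to -0.94, adjusted p = 0.0585). It passed without miR-24 Tg replicate 1 (0.0324), miR-24 Tg replicate 2 (0.0372) or miR-27 Tg replicate 1 (0.0180).

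Jun, the main AP-1 transactivator, held 436, 412 and 352 RPKM in WT, 398, 458 and 513 in DKO, and 470, 377 and 406 in miR-23 Tg. Cluster Tg (189, 276 and 165 RPKM) and miR-27 Tg (270, 136 and 67.7 RPKM) lay below all of these. The differences from WT were -0.96 in cluster Tg (SE 0.62, adjusted p = 0.457) and -1.55 in miR-27 Tg (SE 0.62, adjusted p = 0.140). MiR-24 Tg held 92.0, 849 and 174 RPKM, the second of these the highest Jun value of the 18 libraries. Because the 18 libraries share one estimate of spread, miR-24 Tg widens the error of Jun everywhere. Without miR-24 Tg replicate 2, limma called Jun lower in miR-27 Tg than in WT (adjusted p = 0.0266). In a fit of miR-27 Tg and WT alone, which holds no miR-24 Tg library, Jun was not called. In a fit of cluster Tg and WT alone Jun was called lower (-0.96, adjusted p = 0.0271).

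Junb and Jund, the JUN proteins that are weaker activators, had the same order of libraries in miR-24 Tg. Junb held 663, 2712 and 908 RPKM there, and 1943, 1480 and 1002 in WT. Jund held 109, 467 and 159 RPKM in miR-24 Tg, and 338, 263 and 175 in WT. In cluster Tg Jund held 76.1, 233 and 126 RPKM, below all DKO libraries (290, 266 and 348), with a difference of -1.19 from DKO (95% interval -2.34 to -0.03, adjusted p = 0.198). Against miR-23 Tg, Jund in cluster Tg was called lower without the libraries that lay apart (-1.49, adjusted p = 0.0391) and not with all 18. Jund overlaps an annotated gene on the opposite strand, Gm11175, and the sources used here do not say whether counting used strand. The log2 differences of Junb from WT ran from -0.28 in miR-27 Tg to 0.14 in DKO, with SE 0.43.

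Nr4a1, the orphan receptor that reports TCR signal strength, held 199, 228 and 95.1 RPKM in WT. MiR-24 Tg held 34.2, 364 and 59.6 RPKM, miR-27 Tg 110, 132 and 165, cluster Tg 137, 152 and 67.8, miR-23 Tg 323, 137 and 154, and DKO 178, 302 and 147. All 5 genotypes overlapped WT, with differences from -0.83 (miR-24 Tg) to 0.29 (DKO) and SE 0.68.

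Counted by comparison, limma called 1 of the 10 genes in cluster Tg against WT (8.48% of all genes) and 1 in miR-27 Tg (8.95% of all genes). It called 0 in miR-23 Tg (0.0450% of all genes), 0 in miR-24 Tg (3.59%), 0 in DKO (0%) and 0 in cluster Tg against DKO (11.3%). At an unadjusted p under 0.05 the counts were 2, 4, 1, 1, 0 and 1 of 10 in that order. Between over-expressing genotypes limma called 1 in miR-27 Tg against miR-23 Tg. Of the comparisons of cluster Tg, it called 0 against miR-23 Tg (10.3% of all genes), 0 against miR-24 Tg (2.22%) and 0 against miR-27 Tg (3.79%), with 3, 0 and 2 at an unadjusted p under 0.05. It called 0 in miR-27 Tg against miR-24 Tg (13.0% of all genes) and in miR-24 Tg against miR-23 Tg (7.13%), with 1 each at an unadjusted p under 0.05.

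The groups did not overlap for 3 of 10 genes in cluster Tg against WT (42.8% of all genes), 3 in miR-23 Tg (28.9%), 2 in miR-24 Tg (33.5%), 4 in miR-27 Tg (27.3%) and 1 in DKO (4.96%). The figure was 5 in cluster Tg against DKO (37.6% of all genes) and 4 in miR-27 Tg against miR-23 Tg (35.8%). These shares are near the background, or rest on so few genes that no difference from it can be read. The median log2 difference of the 10 genes from WT was -0.40 in cluster Tg, -0.44 in miR-24 Tg, -0.28 in miR-27 Tg, 0.07 in miR-23 Tg and 0.19 in DKO, against 0.00 to 0.03 over all genes.

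Spread within genotypes divided the 10 genes. The SD of log2(RPKM + 1) between libraries of one genotype was 1.55 for Fosb, 0.89 for Nr4a1, 0.87 for Fos, 0.81 for Jun, 0.71 for Jund, 0.53 for Junb and 0.43 for Egr1. It was 0.20 for Egr2, 0.18 for Egr3 and 0.15 for Myc, against a median of 0.25 over all 11099 genes. Fosb exceeded 97.2% of all genes, Nr4a1 96.1%, Fos 95.9%, Jun 95.6% and Jund 94.5%, and Myc exceeded 19.0%.

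**Figure D3:**
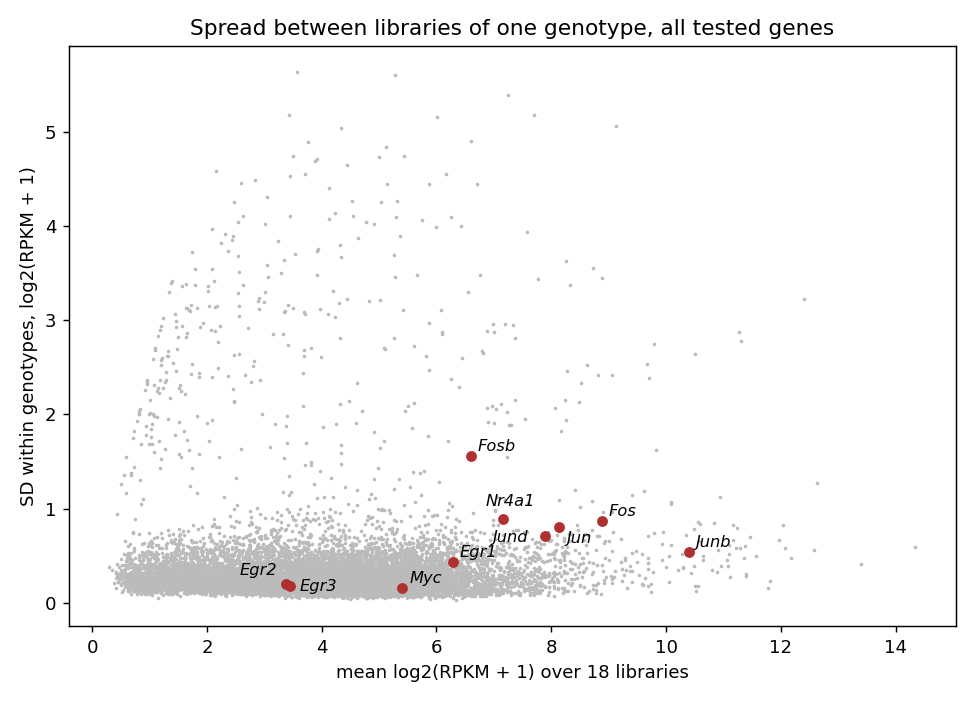
SD between libraries of one genotype against the mean level, both in log2(RPKM + 1), for 11099 genes (grey) and the 10 genes described (red). Fosb (1.55), Nr4a1, Fos, Jun and Jund lie above most genes, while Egr2, Egr3 and Myc (0.15) lie within the bulk.

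The 7 variable genes moved together from library to library; this grouping was made after the values were seen, so it is a description only. Over the 18 libraries their 21 pairs had a Pearson r of 0.33 to 0.87, with a median of 0.71. After subtracting each genotype mean the median was 0.73 (0.27 to 0.85). The closest pair was Fosb with Jun (r = 0.87, Spearman rho 0.79, r = 0.77 without the 2 libraries farthest from the median of Fosb), and the loosest Fos with Jund (r = 0.33, rho 0.33). Libraries share depth and preparation, which such an r also reflects.

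MiR-24 Tg carried much of the pattern. In its replicate 2 all 7 genes lay above the genotype mean, by 1.51 on average on the log2 scale, and in its replicate 1 all 7 lay below, with a mean deviation of -1.25. WT replicate 3 and cluster Tg replicate 3 had all 7 below their genotype mean (-0.56 and -0.54), and WT replicate 1 and cluster Tg replicate 2 all 7 above (0.34 and 0.54). The mean deviation of the 7 genes was below 0 in all 5 libraries numbered replicate 3 (-0.56 to -0.17), whose 10 pairs all had positive correlations of deviations over all genes (0.04 to 0.58). Such correlations were positive for 8 of 10 pairs of replicate 1 and 8 of 10 of replicate 2. Without miR-24 Tg replicates 1 and 2, the median r of the 21 pairs was 0.58, and 0.47 after subtracting genotype means (-0.13 to 0.81). Without the 2 libraries that lay apart it was 0.75, and 0.79 within genotypes. Egr2, Egr3 and Myc had median r of -0.28, -0.45 and 0.29 with the 7 genes, and 0.00, -0.30 and 0.19 within genotypes.

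**Figure D4:**
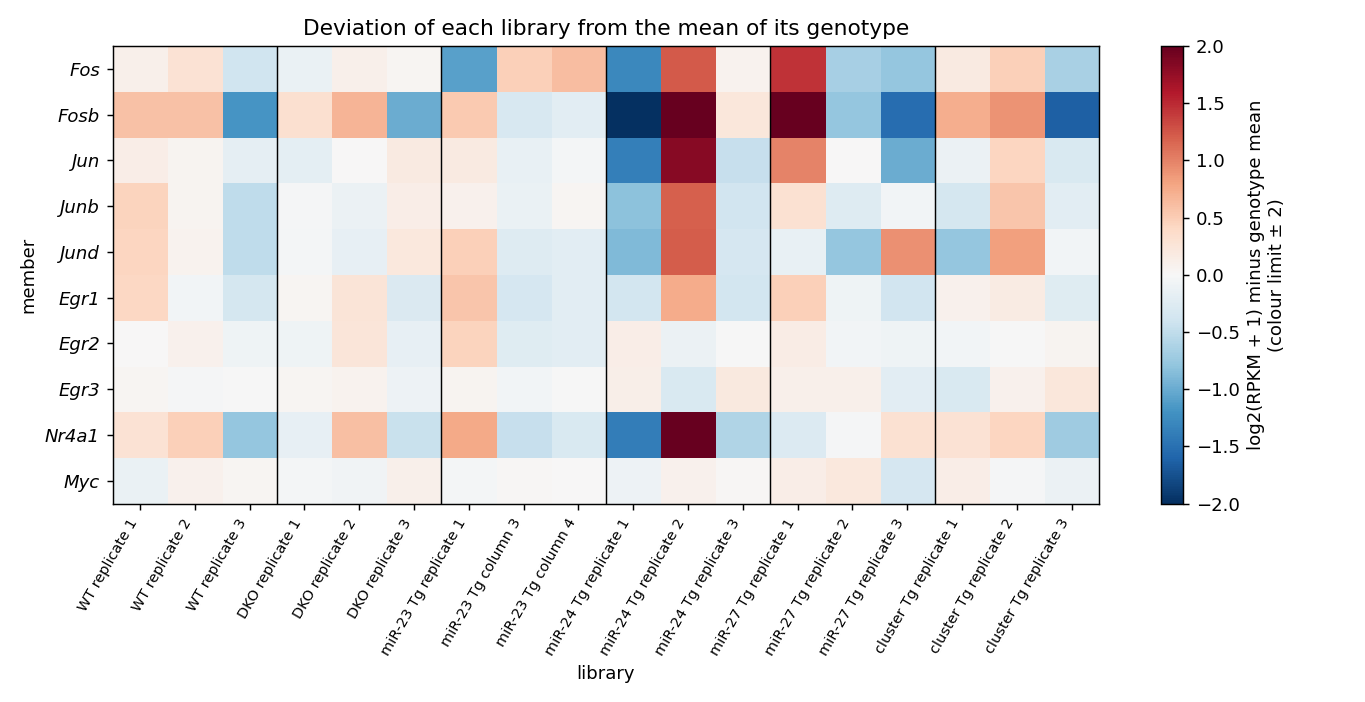
Deviation of each library from the mean of its genotype in log2(RPKM + 1), for the 10 genes (rows) in 18 libraries (columns, grouped by genotype); red is above and blue below the mean, and colours stop at ± 2. MiR-24 Tg replicates 1 and 2 carry opposite colours for the 7 AP-1, Egr1 and Nr4a1 rows, and the Egr2, Egr3 and Myc rows are pale throughout.

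Genes with the most similar profile were found by Pearson r over the 18 libraries among all tested genes. For Fos it was Dusp1 (r = 0.93), a phosphatase that ends MAP kinase signalling. For Fosb it was Klf4 (0.98) and then Tnfaip3 (0.93), for Jun Klf6 (0.91), for Junb Ier5 (0.84), for Egr1 Tob2 (0.91) and for Nr4a1 Plk2 (0.94). For Jund it was Ccnl2 (0.90), for Egr2 Slco4a1 and Icos (both 0.83), for Egr3 Gtpbp3 (0.81) and for Myc Ccdc62 (0.83). Each of these is the highest r of a search over all tested genes, so its size is no test.

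The mean of 29 other immediate early genes tracked the mean of the 7 genes (r = 0.90 and rho 0.82 over 18 libraries, r = 0.88 without the 2 farthest, 0.94 after subtracting genotype means). Within genotypes Klf4 (0.96), Klf6 (0.93), Ppp1r15a (0.88) and Dusp1 (0.87) were closest, while Dusp2 was at -0.24 and Ier3 at 0.08. Of these 29, 3 rose in cluster Tg (Ier5l, Sgk1 and Dusp6) and 1 fell (Rhob, which encodes a small GTPase, 2.92 ± 0.638 against 15.7 ± 4.19 RPKM). In miR-27 Tg Ier5l rose and Rhob fell (3.59 ± 0.705 RPKM). Limma called 0 of the 29 in miR-23 Tg, miR-24 Tg and DKO, with 3, 2 and 0 at an unadjusted p under 0.05. The background over all genes against WT was 8.48% called for cluster Tg and 8.95% for miR-27 Tg. For miR-24 Tg, miR-23 Tg and DKO it was 3.59%, 0.0450% and 0%. Whether the 29 genes differ from this background was not tested. The heat shock list had r = 0.41 with the 7 genes and 0.60 within genotypes, and the naive CD4 T cell markers 0.03 and 0.04.

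Markers of other cells correlated negatively with the mean of the 7 genes, those of B cells most. Within genotypes the r was -0.34 for myeloid, -0.40 for neutrophil, -0.27 for CD8 and NK and -0.46 for erythroid markers. For these lists that was weaker than over the 18 libraries. The B cell markers had r = -0.74 with the mean of the 7 genes (rho -0.63, -0.68 without the 2 libraries farthest from the median of the 7 genes), and -0.74 within genotypes. Their summed level was 22.7 to 34.4 RPKM in WT, 31.1 to 44.1 in DKO, 33.4 to 122 in miR-23 Tg, 96.2 to 185 in cluster Tg, 141 to 546 in miR-24 Tg and 180 to 1102 in miR-27 Tg, and all 13 were above 0 in every library. Against WT, 12 of 12 tested B cell markers were called higher in miR-27 Tg, 8 in miR-24 Tg and 1 in cluster Tg. Of all genes, 8.95%, 3.59% and 8.48% were called in these comparisons. In miR-24 Tg the sum was 546 RPKM in replicate 1, where the 7 genes were lowest, and 141 in replicate 2, where they were highest. In WT the sum was lowest, at 22.7 RPKM, in replicate 3, where the 7 genes were also lowest. The part of these cells in the levels of Fos, Jun, Egr2, Egr3 and Myc was not tested.

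Factors that act on the immediate early genes were read from a list of 13 SRF, ETS, CREB and MEF2 genes. Against WT, 1 rose and 1 fell in cluster Tg, 1 fell in miR-24 Tg and 2 rose in miR-27 Tg. Of all genes, 8.48%, 3.59% and 8.95% were called in these comparisons. The list medians there were -0.05, -0.03 and -0.12. In miR-23 Tg and DKO limma called 0 of the 13, with 0.0450% and 0% of all genes called. Srf, which encodes the serum response factor, fell in cluster Tg (28.8 ± 4.50 against 45.7 ± 3.59 RPKM, log2 -0.66, adjusted p = 0.00271) and in miR-24 Tg (31.7 ± 0.328 RPKM, -0.51, 0.0245). Elk3, an ETS factor of the ternary complex, rose in cluster Tg (25.8 ± 2.09 against 18.7 ± 1.68 RPKM) and in miR-27 Tg (25.8 ± 2.45 RPKM). Mef2c rose in miR-27 Tg, from 0.0804 ± 0.0348 to 1.23 ± 0.680 RPKM; it is also expressed in B cells. Of 10 other AP-1 genes, Maf rose in cluster Tg (13.6 ± 0.837 against 3.59 ± 0.237 RPKM), miR-24 Tg (10.7 ± 4.31) and miR-27 Tg (10.4 ± 4.11), and Jdp2, an AP-1 repressor, rose in cluster Tg (2.88 ± 0.618 against 0.553 ± 0.343). No other gene of these 10 was called against WT. Their median was 0.14 in cluster Tg, 0.18 in miR-24 Tg and -0.29 in miR-27 Tg.

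Of 22 other TCR-induced genes tested, most did not pass in any comparison with WT. In cluster Tg 3 rose (Pdcd1, Ifng and Icos), where 8.48% of all genes were called. In miR-24 Tg 5 rose, with Xcl1, Ifng, Cd83 and Pdcd1 the largest changes, against 3.59% of all genes. In miR-27 Tg 4 rose (Pdcd1, Ccl4, Cd83 and Icos), against 8.95%. None of the 22 was called lower in these 3 comparisons, and the list medians were 0.18, 0.15 and 0.06. Pdcd1, which encodes the inhibitory receptor PD-1, stood at 15.2 ± 1.99, 9.76 ± 4.79 and 11.1 ± 2.35 RPKM against 2.90 ± 0.0792 in WT. Limma called 0 of the 22 in miR-23 Tg and in DKO, with 4 and 0 at an unadjusted p under 0.05. The shares of all genes called there were 0.0450% and 0%. The list means of the EGR targets and the TCR-induced genes had r = 0.71 and 0.72 with the mean of the 7 genes within genotypes, and -0.07 and 0.27 over 18 libraries with genotype means kept in. Xcl1, Ifng and Ccl4 are also expressed by CD8 T cells and natural killer (NK) cells. Of 8 tested CD8 and NK markers, 3 were called higher in cluster Tg, 4 in miR-24 Tg, and 3 higher and 1 lower in miR-27 Tg. The summed level of the 10 listed markers was 47.8 to 55.3 RPKM in WT, 76.6 to 132 in cluster Tg, 123 to 153 in miR-24 Tg, 61.6 to 175 in miR-27 Tg, 31.7 to 47.4 in miR-23 Tg and 50.7 to 69.3 in DKO. Cd8a, at 0.394 ± 0.165 RPKM in WT, stood at 7.17 ± 3.98 in cluster Tg, 3.99 ± 0.992 in miR-24 Tg and 5.92 ± 2.73 in miR-27 Tg. Their part in the TCR-induced and EGR target genes was not tested. Lists of EGR and TCR genes were compiled with earlier results of these data known and support no direction on their own.

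Promoter windows of 300 bases, 250 before to 50 after the start site (RefSeq, GRCm38.p6), were present for 7 of the 10 genes, all but Egr1, Egr3 and Myc. They were searched on both strands for the CArG box bound by SRF (CC, 6 bases of A or T, GG), the cyclic AMP element TGACGTCA and, as an addition after that search, its core TGACG, the AP-1 site TGANTCA, and the EGR sites GCGTGGGCG and GCGGGGGCG. TGACG lies within TGACGTCA. The 7 genes have 11 windows, 5 of them of Egr2, so they are set beside the 8181 tested genes with a window, counting a match in any window of a gene, and beside all 32851 windows. A CArG box was found for 1 of 7 genes (Egr2), against 1.49% of tested genes and 1.63% of all windows. GCGGGGGCG was found for 2 (Fosb and Nr4a1), against 6.17% and 2.91%. TGACG was found for 5 of 7 (Fos, Fosb, Junb, Egr2 and Nr4a1), against 37.5% and 20.8%. None of the 7 had TGACGTCA (3.91% and 1.79%), TGANTCA (5.55% and 7.81%) or GCGTGGGCG (1.5% and 0.612%). A match describes these letters only. Sites beyond the windows and variants of these letters were not searched. A gene without a match, such as Fos for the CArG box, may hold a site elsewhere.

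The 4 windows below are shown because Fos, Fosb and Nr4a1 belong to the genes that moved together and Egr2 to those that did not. Capitals mark matches of any searched motif on either strand. They lie at chr12:85473640-85473939 (plus strand), chr7:19309996-19310295 (minus), chr15:101266596-101266895 (plus) and chr10:67537619-67537918 (plus, 1 of the Egr2 starts in the table), in the order given.
Fos: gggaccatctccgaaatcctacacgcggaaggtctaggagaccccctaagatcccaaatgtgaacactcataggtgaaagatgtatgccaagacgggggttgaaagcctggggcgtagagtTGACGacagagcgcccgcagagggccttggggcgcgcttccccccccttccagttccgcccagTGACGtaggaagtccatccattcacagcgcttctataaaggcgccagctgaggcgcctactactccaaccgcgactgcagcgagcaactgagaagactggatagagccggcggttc
Fosb: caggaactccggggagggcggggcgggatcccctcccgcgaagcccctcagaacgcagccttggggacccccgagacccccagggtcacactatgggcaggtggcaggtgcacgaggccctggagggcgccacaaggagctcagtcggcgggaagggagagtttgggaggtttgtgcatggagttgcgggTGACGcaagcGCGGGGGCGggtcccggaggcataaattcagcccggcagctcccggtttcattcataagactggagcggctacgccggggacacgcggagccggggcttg
Nr4a1: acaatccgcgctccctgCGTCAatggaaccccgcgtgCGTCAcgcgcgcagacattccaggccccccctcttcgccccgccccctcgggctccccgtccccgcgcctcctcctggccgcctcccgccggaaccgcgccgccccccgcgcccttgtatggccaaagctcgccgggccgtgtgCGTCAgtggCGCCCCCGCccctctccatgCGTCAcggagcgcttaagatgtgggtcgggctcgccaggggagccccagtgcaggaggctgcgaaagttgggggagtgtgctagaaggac
Egr2: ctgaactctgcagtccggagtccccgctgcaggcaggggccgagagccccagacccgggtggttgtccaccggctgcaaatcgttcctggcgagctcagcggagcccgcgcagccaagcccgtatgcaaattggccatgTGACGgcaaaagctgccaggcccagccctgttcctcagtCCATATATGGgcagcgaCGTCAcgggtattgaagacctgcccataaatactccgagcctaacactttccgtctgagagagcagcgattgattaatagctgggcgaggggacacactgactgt
Fosb, Nr4a1 and Fos all hold TGACG between 40 and 70 bases upstream of the start, at -60 in Fosb, -69 and -40 in Nr4a1 and -66 in Fos. Egr2 holds TGACG in the same stretch, at -55, and also at -111, with a CArG box at -72. Of the other genes that moved together, Junb holds TGACG at -106 and Jun and Jund hold none in their windows.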

How the data were processed

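Total RNA that kept small RNAs was extracted with a miRNeasy kit, and TruSeq libraries were run on an Illumina HiSeq, per the labels' protocols. The authors deposited 1 table of RPKM values (reads per kilobase of transcript, scaled to the library's reads), with 23953 rows of genes and a column for each of 18 libraries. STAR 2.2.0c and HOMER with build mm9 are named in the submitters' processing notes. For the gene models, strand and shared reads the sources used here give nothing. Of 2 repeated symbols the row with the higher mean was kept. The deposited RPKM hold no counts, so no count test was run and no interval for counting error is given.

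Tests used log2(RPKM + 1); fold changes are on that scale, which understates change at low values. The filter kept genes that reached 1 RPKM in 3 or more of 18 libraries. Genotype was the only term of a model fitted over all 18 libraries by limma 3.58.1 (R 4.3.3, trended eBayes), and Benjamini-Hochberg adjustment ran over all 11099 genes within each contrast. A gene is called at an adjusted p under 0.05. The script was tested on simulated data. An exact permutation test of 3 libraries against 3 cannot go below 0.1. The 2 miR-23 Tg columns of one name had r = 0.994 over 10118 genes at 1 RPKM or more in both. Identical values there numbered 0. Over all tested genes they were the closest pair of the 18 libraries (r = 0.954). These values do not show whether the 2 columns are separate samples. They are used as separate libraries, and columns left unmapped numbered 0.

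Named genes are the 10 members, the called genes of each list (at most 4 per list and comparison, largest change first) and the most similar genes by r. Dusp2, Ier3 and the 7 covarying genes were singled out after their values were seen. The list means were correlated with the mean of those 7 genes over the 18 libraries. Myeloid, neutrophil, CD8 and NK, and erythroid markers had r = -0.64, -0.54, -0.61 and -0.57. Other AP-1 genes had 0.55, and other EGR and NR4A genes 0.69. SRF and ETS, EGR target and TCR-induced genes had 0.43, -0.07 and 0.27. MYC partner and MYC target genes had 0.29 and 0.46. The members and lists were chosen with earlier results of these data known. The alternatives were no filter, other pseudocounts, quantile or median-ratio scaling, array weights, a replicate block, fits of only the genotypes compared and leaving out libraries.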

Additional observations from a re-analysis of the deposited data

Results flagged for a closer look

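Egr3 differed between a pair of over-expressing genotypes when the difference itself was tested: it was higher in miR-27 Tg than in miR-23 Tg by 0.62 on the log2 scale (SE 0.15, limma, adjusted p = 0.0126), with all 3 libraries of the first above all 3 of the second. With a replicate block, which leaves a single miR-23 Tg library, the call was lost (0.56, adjusted p = 0.223). Against WT the difference was 0.47 in miR-27 Tg (adjusted p = 0.0666) and -0.15 in miR-23 Tg (adjusted p = 0.974). Groups of 3 libraries were not tested for outlying values.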

How the results depend on the processing

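No called result reversed in any of 30 alternatives (29 for Egr3). Myc in miR-27 Tg against WT kept its call in 29, with log2 differences of -0.74 to -0.46; it lost it in the fit of those 6 libraries alone (adjusted p = 0.272). Egr2 in cluster Tg kept its call in 17 and lost it in 13, with log2 differences of 0.41 to 0.63 and adjusted p up to 0.143. Of 117 uncalled comparisons, 47 changed sign in at least 1 setting. The cause was not tested for any of these.

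The number of members called moved as follows, with the number using all 18 libraries first. In cluster Tg against WT it was 1, then 0 without a filter, 0 with quantile normalisation, 2 with array weights, 2 without the 2 libraries apart, 2 in a fit of only these genotypes and 0 to 2 with 1 library left out. In miR-27 Tg it was 1, then 3 with quantile normalisation, 3 with array weights, 3 without the libraries apart, 0 in a fit of only these genotypes and 1 to 3 with 1 library left out. In miR-24 Tg it was 0, then 1 with array weights, 1 without the libraries apart, 1 in a fit of only these genotypes and 0 to 1 with 1 library left out. In miR-23 Tg it was 0, then 1 with array weights and 1 without the libraries apart. In cluster Tg against DKO it was 0, then 2 with array weights, 1 in a fit of only these genotypes and 0 to 1 with 1 library left out. In the F test it was 1, then 2 with quantile normalisation, 5 with array weights, 2 without the libraries apart and 1 to 3 with 1 library left out. Over the 6 pairs of over-expressing genotypes it was 1, then 2 with quantile normalisation, 18 with array weights, 3 without the libraries apart and 1 to 5 with 1 library left out. In DKO against WT it was 0 throughout. The background of the 6 pairs moved as well. With all 18 libraries, 246 to 1846 of all genes were called per pair. With array weights the range was 1906 to 4739 per pair, so the 18 members called there came with a rise over all genes.

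Replicate numbers were not taken as pairs, because the labels state no design. Among the 30 same-numbered pairs, 11 had a correlation of deviations over 0.1 (-0.11 to 0.58). These were 1 of 10 pairs of replicate 1, 3 of replicate 2 and 7 of replicate 3. All 10 pairs of replicate 3 were above 0, against 8 of 10 for replicate 1 and 8 of 10 for replicate 2. The source of these shared signs was not tested. Values for pairs of unlike number are not given here, so these cannot show whether the replicate numbers mark a shared effect. With a replicate block, which leaves a single miR-23 Tg library, Egr3 in miR-27 Tg against miR-23 Tg was 0.56 (adjusted p = 0.223), the F test called Egr2 (0.0456) and not Myc (0.0579), the members called between over-expressing genotypes numbered 0 and those in miR-27 Tg against WT 2.

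Counts over all genes moved by more than 1.5 times too: 941 in cluster Tg against WT became 406 to 3401, 993 in miR-27 Tg became 43 to 3072, 398 in miR-24 Tg became 175 to 2451, 5 in miR-23 Tg became 1 to 1410, and 1259 in cluster Tg against DKO became 550 to 4295. In DKO against WT the range was 0 to 4, and in the F test 2105 became 1559 to 7556. Array weights gave the highest of these apart from DKO. Depth cannot be given in reads. Averaging the 2 columns of one name, and leaving out libraries from the correlations among the 7 genes, were chosen after seeing the data.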
